A study of Mus musculus with 15 samples.

Results

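The mouse mitochondrial genome carries 37 genes, and all of them were found in the RNA-seq table by the mt- prefix of their symbols, out of 56980 genes listed. They comprise 13 protein-coding genes, 2 ribosomal RNA (rRNA) genes and 22 transfer RNA (tRNA) genes. RNA was profiled in bulk from the tibialis anterior (TA), a fast limb muscle, and from the heart of DBA/2J-mdx mice, a dystrophin-deficient strain used as a model of Duchenne muscular dystrophy. Every mouse carried the mdx genotype, and no dystrophin-sufficient mouse entered the comparisons.

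In the TA arm, 4 mice received dasatinib and quercetin (D + Q, a drug combination used to remove senescent cells) and 4 received vehicle, from 3 to 5 months of age and 2 times a week. In the heart arm, 3 mice received D + Q and 4 received vehicle on the same schedule from 12 to 16 months of age. By label, the 4 D + Q–treated TA mice were male, and vehicle TA held 2 males and 2 females. D + Q heart was labelled 1 male and 2 females, and vehicle heart 2 males and 2 females. Tissue therefore goes together with age and with a treatment of 2 or 4 months, and these cannot be told apart.

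Mitochondrial DNA is a small circle present in many copies per cell. It is transcribed from both strands into long precursors, and the tRNAs that punctuate the genome are cut out to free the mRNAs and rRNAs. Its 13 proteins are core subunits of respiratory complexes I, III and IV and of the ATP synthase, and every other subunit is made from nuclear genes. Heart and skeletal muscle depend heavily on these complexes, and the heart is among the tissues richest in mitochondria.

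Values were deposited as TPM (transcript abundances scaled to a fixed sum), which are corrected for gene length and sum to 1000000 in each library. They keep no record of read depth, so precision comes from the spread between mice, and fewer mitochondria, fewer muscle cells and less RNA per mitochondrion cannot be told apart. Between 21830 and 25378 genes were above 0 in a library. The 6 fast-muscle markers were all higher in TA than in heart and the 6 ventricular markers all lower, as labelled. One heart library, D + Q replicate 3, was labelled male but held 47.2 TPM of the female-specific Xist RNA. It held at most 0.0279 TPM of 4 Y-linked genes, so heart values are also given without it where it matters. By these RNAs every D + Q heart read as female, vehicle heart replicates 1 and 4 as male and replicates 2 and 3 as female. Sex was therefore unbalanced between treatments in heart too, whereas the heart model used the label.

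A stretch of nuclear DNA bears on every level below. In the GRCm39 reference, chr1:24650616-24655265 on the minus strand repeats chrM:6394-11042, which is 4649 bases of the 16299-base mitochondrial genome, with 99.957% identity and 2 differences. In all, 7 annotated pseudogenes lie in that block, opposite mt-Co1, mt-Co2, mt-Atp6, mt-Co3, mt-Nd3, mt-Nd4l and mt-Nd4. Reads from a mitochondrial mRNA and from its chromosome 1 copy are therefore almost indistinguishable, and the split between them in the table is uncertain. The reference derives from the C57BL/6J strain, and whether DBA/2J-mdx mice carry the same block was not tested.

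The sequences show how little there is to separate a pair. The first bases of mt-Nd3, an exon of a complex I subunit gene at chrM:9459-9518 on the plus strand, are set against the matching bases of its copy Gm28438 at chr1:24652141-24652200 on the minus strand. The capital marks the only base that differs along the aligned gene, T9461C, counted on the mitochondrial genome. It is the third base of the mt-Nd3 gene.
mt-Nd3: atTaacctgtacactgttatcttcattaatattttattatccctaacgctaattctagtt
Gm28438: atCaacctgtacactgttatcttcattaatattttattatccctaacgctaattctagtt

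For mt-Co2, a complex IV subunit gene, no base differed over the 681 aligned bases of 684. Its last bases at chrM:7634-7696 and those of Gm28661 at chr1:24653966-24654025 differ by where the annotation ends, and the capitals mark the bases that lie only within the mitochondrial gene.
mt-Co2: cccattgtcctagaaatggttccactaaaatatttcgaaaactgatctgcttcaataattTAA
Gm28661: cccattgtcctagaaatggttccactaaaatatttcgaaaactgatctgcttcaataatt

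Some mitochondrial genes also overlap each other, because the genome is compact and a single mRNA can carry a pair of reading frames. mt-Atp8 and mt-Atp6, which encode ATP synthase subunits, share 43 bases, shown in capitals within chrM:7912-7984.
mt-Atp8 to mt-Atp6: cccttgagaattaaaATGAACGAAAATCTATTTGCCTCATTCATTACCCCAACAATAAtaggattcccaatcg
mt-Nd4l and mt-Nd4 share 7 bases in the same way, and mt-Nd5 and mt-Nd6 share 14 bases on opposite strands. Levels of overlapping genes are uncertain for the same reason, and whether strand was used in counting is not given in the sources used here.

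As deposited, the 37 genes made up 22.7% to 30.0% of each library. Their share of TPM was 24.8%, 25.2%, 23.4% and 23.4% in the D + Q–treated TA libraries and 23.9%, 22.7%, 24.2% and 29.1% in vehicle TA. In heart it was 29.4%, 28.03% and 30.0% with D + Q and 28.6%, 26.2%, 26.2% and 27.4% with vehicle. Treatment groups overlapped in both tissues, and vehicle TA replicate 4 was the highest TA library.

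Group means were 24.2% ± 0.955 (SD, n = 4) for D + Q TA, 25.0% ± 2.79 (n = 4) for vehicle TA, 29.2% ± 1.02 (n = 3) for D + Q heart and 27.1% ± 1.17 (n = 4) for vehicle heart. The D + Q TA libraries all lay below the D + Q hearts, while vehicle TA overlapped vehicle heart through replicate 4. Shares are given as a description and were not tested.

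Nearly all of this share was mRNA, in libraries that the authors made with an mRNA preparation kit. The rRNA and tRNA values given here therefore describe such libraries, and levels in the cell were not measured. The 13 protein-coding genes held 21.97% to 28.04% of TPM across the 15 libraries, the 2 rRNAs 0.712% to 1.98%, and the 22 tRNAs at most 0.0028%. The 7 chromosome 1 copies added a further 14.2% to 17.2%, so that members and copies together held 37.4% to 47.2%. Counting the copies as mitochondrial left the treatment groups overlapping in both tissues.

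**Figure D1:**
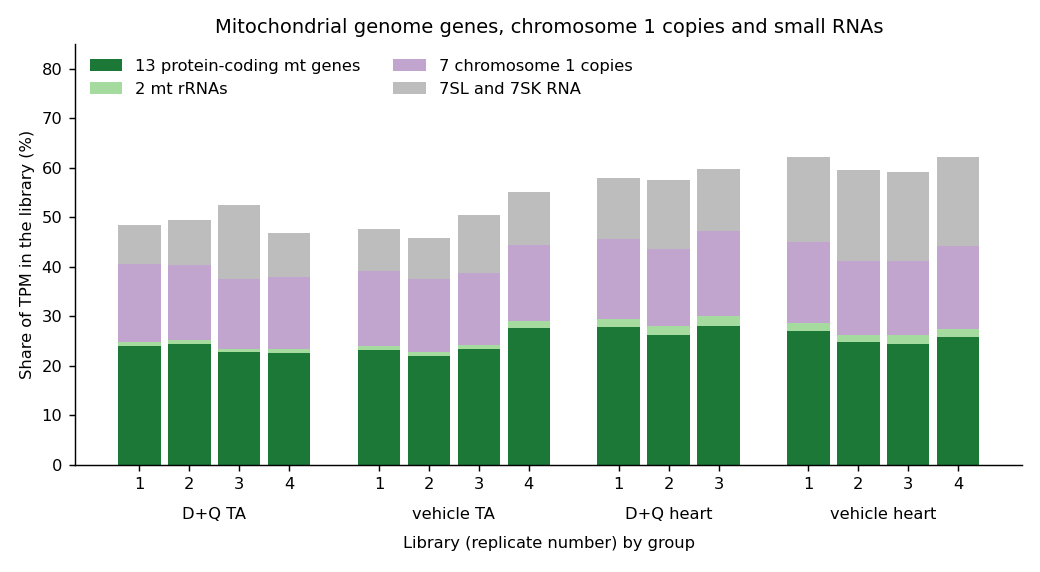
Share of TPM (%) in each of the 15 libraries, stacked for the 13 protein-coding and 2 rRNA genes of the mitochondrial genome, the 7 chromosome 1 copies and the small nuclear-encoded RNAs 7SL and 7SK. The grey segment is 17.2% to 18.3% in the vehicle hearts and 12.2% to 13.8% in the D + Q–treated hearts.

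Abundant nuclear RNAs set part of each share, because TPM add to a fixed total. The small RNAs 7SL (Rn7s1 and Rn7s2, the RNA of the signal recognition particle) and 7SK (Rn7sk, a regulator of transcription elongation) held 12.2%, 13.8% and 12.6% of TPM in the D + Q hearts and 17.2%, 18.3%, 18.1% and 18.0% in the vehicle hearts. These groups did not overlap, whereas in TA they did, at 8.001% to 14.9% with D + Q and 8.34% to 11.6% with vehicle.

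The mean mitochondrial share in heart was 2.07 percentage points higher with D + Q than with vehicle as deposited, and 0.477 points higher when 7SL and 7SK RNA were left out of the total. That way of scaling was chosen after the data were seen.

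As listed, mt-Atp8 was the most abundant single gene in 13 of the 15 libraries, and Rn7s1 was in the other 2, vehicle heart replicates 2 and 3. The 7SL genes Rn7s1 and Rn7s2 were not summed for this ranking, and the split between them was uneven. In vehicle heart replicates 2 and 3, Rn7s1 stood at 126878 and 129207 TPM and Rn7s2 at 42.45 and 16.54. In replicates 1 and 4, Rn7s1 stood at 57835 and 71143 TPM and Rn7s2 at 61179 and 54580. Of the 10 most abundant genes in a library, 3 or 4 were members and 3 or 4 were their chromosome 1 copies. Length-corrected levels of the 15 mRNA and rRNA genes ranged over more than 3 orders of magnitude as listed.

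mt-Atp8 stood at 84367 to 92226 TPM in D + Q TA, 83028 to 113886 in vehicle TA, 88452 to 103949 in D + Q heart and 85025 to 99304 in vehicle heart. This short gene of 204 bases held 33.8% to 41.3% of the TPM of the 13 mRNAs. Its level is length-corrected and uncertain, because it overlaps mt-Atp6. mt-Co1, which encodes the catalytic subunit of complex IV, followed at 38526 to 43646 TPM over the 8 TA libraries and 57692 to 67863 over the 7 hearts. At the other end, mt-Co2 was listed at 30.7 to 348 TPM, and mt-Nd3 at 211 to 1647 TPM.

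Between these ends lay a group of genes at similar levels. mt-Nd1 (complex I) spanned 20204 to 28011 TPM, mt-Nd4 (complex I) 18761 to 25864, mt-Cytb (cytochrome b of complex III) 17047 to 21028 and mt-Nd2 (complex I) 13129 to 18751. The ranges of mt-Nd1, mt-Nd4 and mt-Cytb over all libraries overlapped, but within each of the 15 libraries mt-Nd1 was above mt-Nd4 and mt-Nd4 above mt-Cytb.

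A lower group held mt-Nd5 (complex I) at 6365 to 9137 TPM, mt-Nd4l (complex I) at 5300 to 8080, mt-Atp6 at 4729 to 7648, mt-Nd6 (complex I) at 2686 to 4200 and mt-Co3 (complex IV) at 1892 to 5115. mt-Nd6 is the only protein-coding gene on the minus strand. The 12S rRNA gene mt-Rnr1 reached 6277 to 16776 TPM, always above the 16S rRNA gene mt-Rnr2 at 838 to 2999 TPM.

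**Figure D2:**
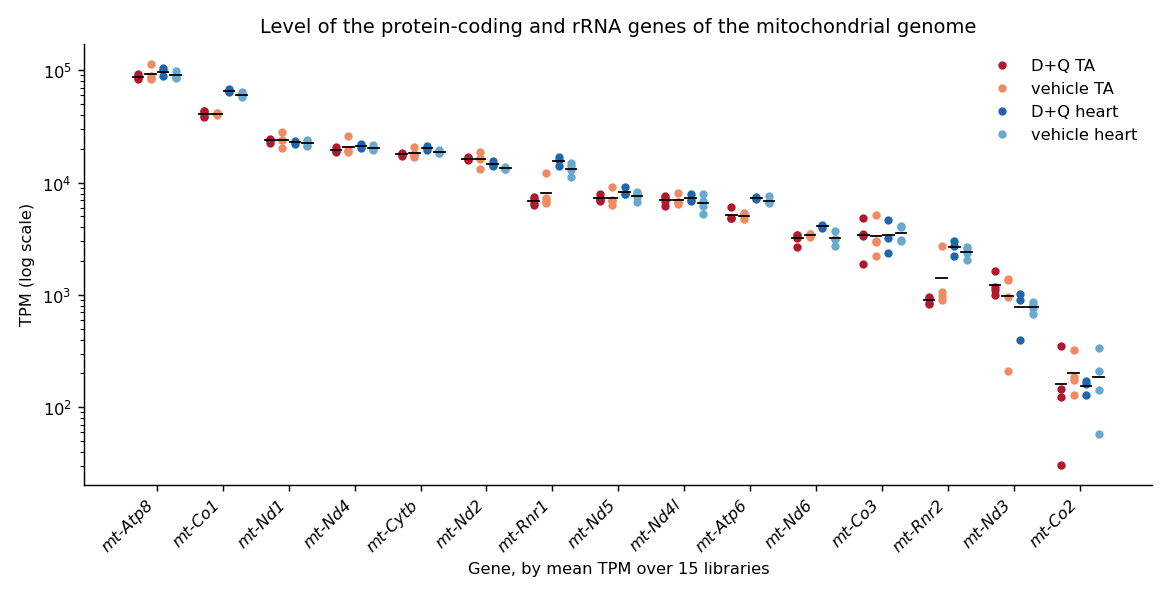
TPM on a log axis of the 13 protein-coding and 2 rRNA genes, ordered by mean over 15 libraries, with each point 1 library and each bar a group mean. mt-Atp8 is the highest throughout, mt-Co1 and both rRNAs are higher in heart than in most TA libraries, and mt-Co2 and mt-Nd3 scatter most.

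The tRNAs were almost absent from the table. Of 22, 18 were listed at 0 in every library. Both mt-Tl1 and mt-Ts1 were above 0 in 1 library each, and mt-Tv in 3, up to 7.57 TPM.

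mt-Tm, the methionine tRNA that lies just before mt-Nd2, was above 0 in 9 libraries. It was listed at 4.15, 7.98, 0 and 21.8 TPM in D + Q TA, 4.44, 0, 3.79 and 0 in vehicle TA, 0, 25.9 and 0 in D + Q heart and 0, 22.02, 7.57 and 24.1 in vehicle heart. Every group held at least 1 library at 0, and the groups overlapped.

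As listed, the chromosome 1 copies held most of the summed TPM in 5 pairs. mt-Co2 held 0.0868% to 0.951% of the TPM it shared with Gm28661, mt-Nd3 2.13% to 10.5% of that shared with Gm28438, mt-Co3 5.17% to 14.3% of that shared with Gm28437 and mt-Atp6 10.4% to 15.8% of that shared with Atp6-ps. mt-Nd4l held 17.2% to 28.1% of its sum with Gm10222. In these 5 pairs the copy covers nearly the whole gene.

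The reverse held where the copy covers part of the gene. Gm29216 matches 483 of the 1545 bases of mt-Co1, and mt-Co1 kept 86.2% to 96.0% of the sum. Gm28439 matches 876 of the 1378 bases of mt-Nd4, and mt-Nd4 kept 99.8% to 100%. mt-Atp8, the most abundant member, lies within the block but has no annotated copy gene there.

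mt-Co2 held the smallest part of its pair. It was listed at 144, 348, 123 and 30.7 TPM in D + Q TA, 128, 321, 186 and 175 in vehicle TA, 170, 130 and 162 in D + Q heart and 57.2, 337, 143 and 208 in vehicle heart. Summed with Gm28661 it was 37718, 36569, 34503 and 35364 TPM in D + Q TA and 36479, 35631, 36194 and 43370 in vehicle TA. In heart the sum was 44151, 41652 and 46378 TPM with D + Q and 44759, 41023, 40566 and 44803 with vehicle. The highest library exceeded the lowest 11.3-fold for mt-Co2 alone and 1.34-fold for the sum. Because mt-Co2 was at most 0.951% of the sum, that range is nearly the range of Gm28661 alone, 34380 to 46216 TPM. The narrower range therefore cannot show how reads were split. In TA the range of the sum overlapped that of mt-Co1.

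Over all libraries the sums of mt-Nd3, mt-Co3, mt-Atp6 and mt-Nd4l with their copies also had narrower fold ranges than the members alone. In these pairs the copy held most of each sum. The same ratio of highest to lowest library fell from 7.82 to 1.64 for mt-Nd3, from 2.70 to 1.57 for mt-Co3, from 1.62 to 1.18 for mt-Atp6 and from 1.52 to 1.38 for mt-Nd4l. Within a group, the coefficient of variation of mt-Co2 ran from 14.0% to 82.8% alone and from 3.90% to 9.63% summed. It ran the other way for mt-Atp6 in vehicle TA, at 5.18% alone and 6.58% summed, and in D + Q heart, at 1.94% and 3.50%, and for mt-Nd4l in vehicle TA, at 10.3% and 14.8%. Because the split within a pair is uncertain, values for these 5 genes are given alone and summed below.

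**Figure D3:**
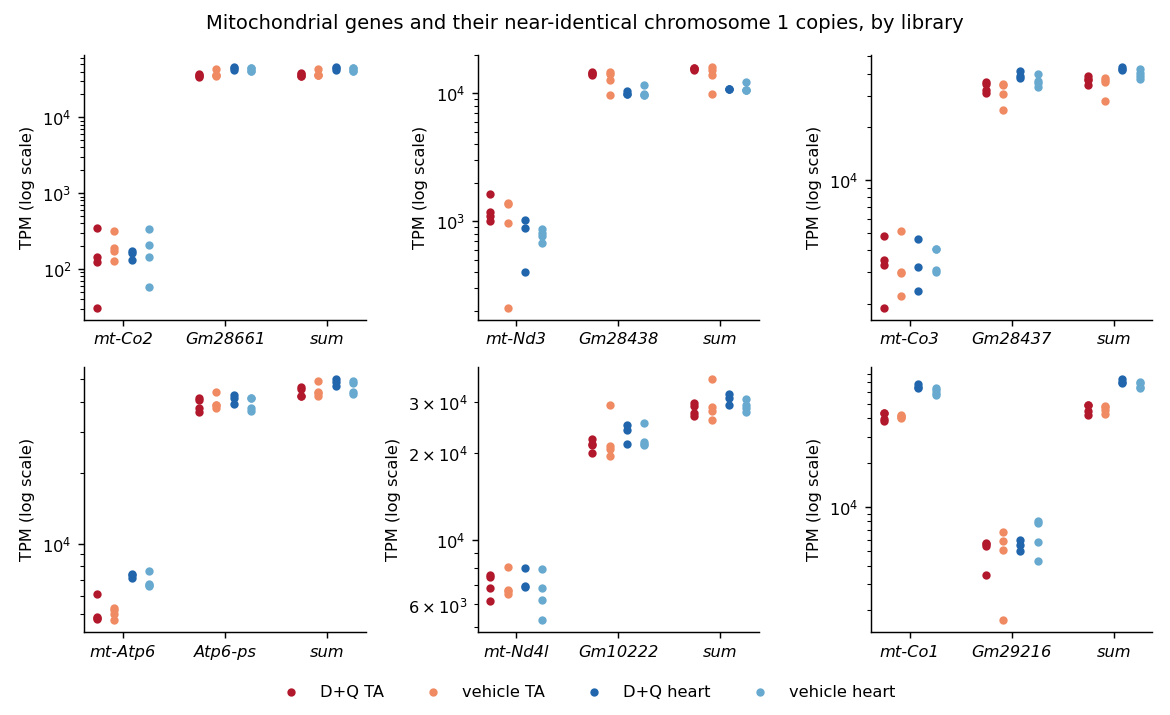
TPM on a log axis of 6 mitochondrial genes, their chromosome 1 copies and the sum of each pair, with each point 1 library coloured by group. For mt-Co2, mt-Nd3, mt-Co3, mt-Atp6 and mt-Nd4l the copy lies above the gene, and for mt-Co1 below it.

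The comparison of D + Q–treated with vehicle-treated TA asks whether treatment early in disease changed these RNAs. No member passed the test. All 13 mRNAs and both rRNAs had overlapping treatment groups, and none of the 16 members that passed the filter (at least 0.5 TPM in at least 3 libraries) was called, where a call needed a log2 fold change beyond 0.5 in size and an adjusted p-value below 0.05. Of all 16298 genes tested, 0% were called, so nothing about the members in particular can be read from that count.

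In TA, 80 genes were higher and 280 lower by more than 0.5 on the log2 scale at an unadjusted p-value under 0.05, and none of them was a member. D + Q lay above every vehicle library for 0.264% of all tested genes and below for 1.25%, and for 0 members in either direction.

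Log2 fold changes of the mRNAs in TA ran from -0.59 for mt-Co2 to 0.51 for mt-Nd3, with a median of -0.01 and 6 of 13 above 0. The count above 0 was 11 of 13 with median-of-ratios scaling. It was 3 of 13 relative to the total of genes without the mt- prefix, chromosome 1 copies included. No direction is therefore given for them as a group. mt-Co1 differed by -0.01 (95% confidence interval -0.33 to 0.31), mt-Cytb by -0.03 (-0.33 to 0.28), mt-Nd1 by 0.01 (-0.33 to 0.34) and mt-Nd6 by -0.13 (-0.40 to 0.15).

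The extremes were genes with a near-identical copy. mt-Co2 changed from -0.59 to -0.07 and mt-Nd3 from 0.51 to 0.15 when each was summed with its chromosome 1 partner. mt-Nd3 was listed at 1102, 997, 1185 and 1647 TPM in D + Q TA and at 1394, 1354, 967 and 211 in vehicle TA. Vehicle replicate 4 was thus below every other TA library. When it was left out, mt-Nd3 had a log2 fold change of 0.00.

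That vehicle library stood apart in several members. mt-Rnr1 was 6628, 7474, 6277 and 7087 TPM in D + Q TA and 6517, 6803, 7253 and 12072 in vehicle TA. mt-Rnr2 was 838, 966, 840 and 942 TPM in D + Q TA and 896, 974, 1065 and 2715 in vehicle TA. Replicates 1 to 3 of vehicle TA lay near the D + Q libraries for both rRNAs, and replicate 4 lay far above. It came from a female, as did vehicle replicate 2, and with males only 0 members were called.

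The fitted differences followed that library. mt-Rnr1 differed by -0.17 (SE 0.20) and mt-Rnr2 by -0.43 (SE 0.30) on the log2 scale, both with an adjusted p-value of 0.999 by limma, and by -0.01 and -0.13 without vehicle replicate 4. In the same library mt-Nd4 stood at 25864 TPM against 18761 to 20599 in the other TA libraries, and the sum of mt-Nd3 and Gm28438 at 9873 TPM against 14030 to 16184.

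The ratio of the 12S to the 16S rRNA was computed after the levels were seen. It was 7.91, 7.73, 7.47 and 7.53 in D + Q TA and 7.27, 6.98, 6.81 and 4.45 in vehicle TA, so the groups did not overlap. In heart it was 6.30, 5.85 and 5.59 with D + Q and 5.58, 5.53, 5.56 and 5.397 with vehicle, again without overlap but with neighbouring values 5.59 and 5.58. The ratio was higher in the D + Q TA libraries than in every heart, and it is given as a description with no test. Other ratios computed, mt-Nd6 over mt-Nd5, mt-Co1 over mt-Cytb, mt-Co1 over mt-Nd1 and mt-Rnr1 over mt-Co1, overlapped between treatments in both tissues. Only the 12S to 16S ratio separated the treatment groups.

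In the hearts, the question was whether late treatment changed the same RNAs. No member was called there either, against 0.316% of the 16132 genes tested (17 higher, 0.105%, and 34 lower, 0.211%). Differences leaned upward, with 10 of 13 mRNAs and both rRNAs above 0 and a median log2 fold change of 0.12 over the mRNAs, while the median over all genes was 0.00. The count was 9 of 13, with a median of 0.03, after scaling to the total without 7SL and 7SK RNA. With sex read from expression in place of the label, 10 of 13 were above 0 and 0 members were called. Values then ran from -0.52 for mt-Co2 to 0.47 for mt-Nd6.

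mt-Nd6, a complex I subunit made from the minus strand, had the smallest p-value. It was 3913, 4200 and 4105 TPM in the D + Q hearts and 3158, 2739, 3149 and 3707 TPM in the vehicle hearts. All 3 treated hearts were above all 4 controls. The log2 fold change was 0.38 (SE 0.09, unadjusted p = 0.00436, adjusted p = 0.119 by limma over all genes), which did not pass the threshold. Without D + Q replicate 3 it was 0.47 (adjusted p = 0.287), and with 7SL and 7SK RNA left out of the total 0.30 (adjusted p = 0.191). Over 19 alternative settings its log2 fold change was 0.30 to 0.47 and its adjusted p-value 0.0736 to 0.308.

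mt-Co1, mt-Nd2 and mt-Cytb also had D + Q hearts above all vehicle hearts. mt-Co1 was 63739, 65094 and 67863 TPM with D + Q and 63627, 57692, 59737 and 62134 with vehicle. mt-Nd2 was 14240, 14194 and 15499 TPM against 13649, 13212, 13327 and 13253. mt-Cytb was 20326, 19723 and 21028 TPM against 19472, 18350, 18520 and 19050.

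In each of these the nearest treated and control hearts were close, as for mt-Co1 at 63739 and 63627 TPM. The log2 fold changes were 0.12, 0.14 and 0.12, with unadjusted p-values by limma of 0.264, 0.103 and 0.165 and adjusted p-values of 0.574, 0.381 and 0.467. Groups did not overlap for 4 of 16 tested members in this direction and for 9.63% of all tested genes, and for 0 members and 5.57% of genes in the other direction.

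The separation depended on the scale. All 4 genes remained apart relative to the total of genes without the mt- prefix, which held the chromosome 1 copies, 7SL and 7SK RNA. In that direction 14.3% of genes did so. With median-of-ratios scaling 0 members and 9.68% of genes did, and after leaving out 7SL and 7SK RNA 0 members and 4.03% of genes did.

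Summed by complex, the TPM of the mitochondrial subunits include the genes just described, so they are no separate evidence. The sums were taken as deposited and not under the other scalings. Complex I members held 7.78% to 8.18% of TPM in the D + Q hearts and 7.08% to 7.65% in vehicle, complex III (mt-Cytb alone) 1.97% to 2.10% and 1.84% to 1.95%, and complex IV members 6.84% to 7.04% and 6.21% to 6.77%. The ATP synthase members overlapped, at 9.59% to 11.1% and 9.17% to 10.7%. With their chromosome 1 copies added, complex I members held 10.9% to 11.7% and 10.2% to 11.2%, and complex IV members 15.4% to 16.4% and 14.3% to 15.8%, so both overlapped. mt-Cytb has no copy in the block.

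The rest of the heart members overlapped between treatments. mt-Rnr1 was 14105, 15795 and 16776 TPM with D + Q and 13051, 11232, 14978 and 14062 with vehicle (log2 fold change 0.25, SE 0.12, adjusted p = 0.344 by limma). mt-Co2 and mt-Nd3 differed by -0.11 and -0.23 alone and by 0.06 and -0.01 summed with their copies. For mt-Co3 the sign turned, from -0.15 alone to 0.12 summed. Without D + Q replicate 3, mt-Nd3 and mt-Co3 alone were at 0.19 and 0.13 and mt-Co2 at -0.56, and none of these values passed the test.

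**Figure D4:**
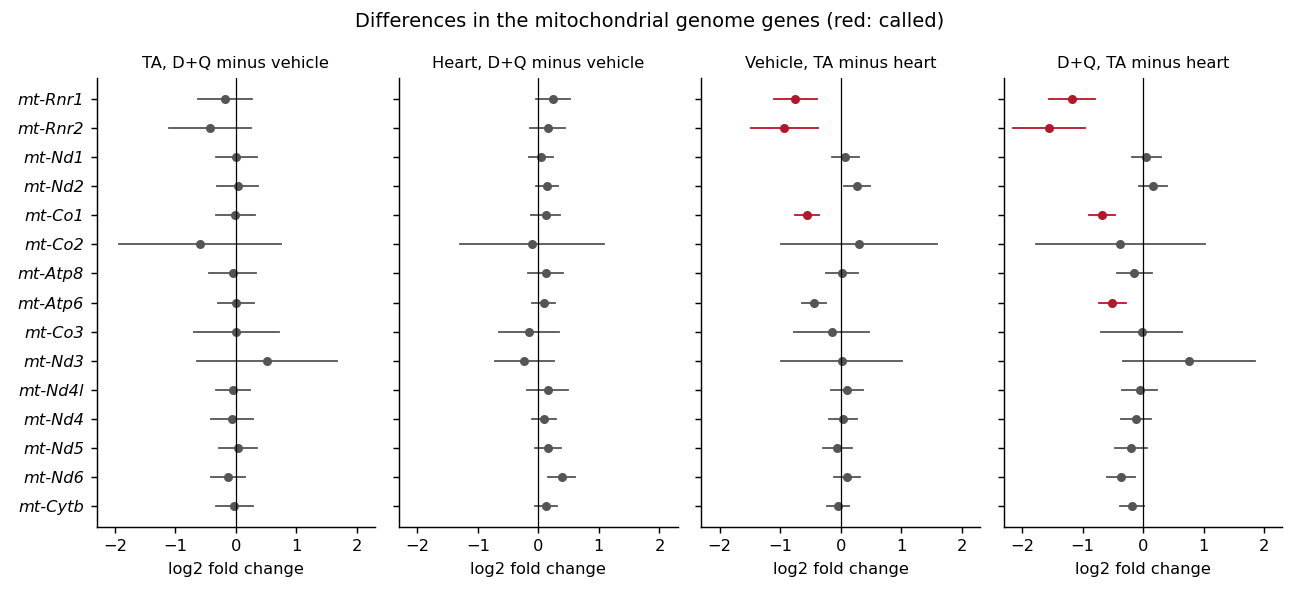
Log2 fold changes of the 13 protein-coding and 2 rRNA genes, in genome order, for the comparisons of treatment within TA and heart and of TA with heart within each treatment, with bars showing 95% confidence intervals. Red genes passed the call (mt-Rnr1, mt-Rnr2 and mt-Co1 in both tissue comparisons, and mt-Atp6 in D + Q mice), and the widest intervals belong to mt-Co2 and mt-Nd3.

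Other RNAs differed between the same hearts, and their part in the mitochondrial values was not tested. The 5 atrial markers summed to 382 to 427 TPM in the D + Q hearts and 864 to 4260 in vehicle, and Myl7, Sln and Myl4 were called lower. The 5 red-cell markers summed to 26.8 to 122 TPM against 346 to 1231, the 5 fibroblast markers to 429 to 502 against 537 to 752, and the 6 ventricular markers to 28789 to 30360 against 22901 to 25387. The leukocyte, endothelial and adipocyte markers had 0 members called in these hearts, and no marker of any of these lists was at 0 in every library.

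Nuclear genes of the respiratory chain leaned upward in the same hearts on the deposited scale, with labelled sex in the model. Their values under the other scalings, and with sex read from expression, are not given here. All 36 nuclear complex I genes, 4 complex II genes, 9 of complex III, 14 of complex IV and 17 of the ATP synthase had log2 fold changes above 0, with list medians of 0.21, 0.22, 0.23, 0.20 and 0.24, and none was called. The smallest p-values within the lists belonged to Ndufv1 (0.33) and Ndufb9 (0.25), Sdha (0.33) and Sdhc (0.22), Uqcrfs1 (0.26) and Uqcrh (0.25), Cox5a (0.27) and Cox5b (0.25), and Atp5f1c (0.33) and Atp5pf (0.33). In TA the same lists had medians of 0.06, 0.05, 0.04, 0.04 and 0.05, and none was called.

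The nuclear factors that copy, transcribe and process mitochondrial DNA were not called under treatment in either tissue. In heart 5 of 7 replication factors, 8 of 10 transcription factors and 13 of 17 RNA-processing factors were above 0, with medians of 0.09, 0.08 and 0.17. The smallest p-values were those of Mgme1 (0.23) and Twnk, the replicative helicase (0.25), of Mterf1b (0.43) and Mterf3 (0.18), and of Fastk (0.32, adjusted p = 0.0989 by limma) and Hsd17b10, a subunit of the enzyme that cuts the 5′ ends of mitochondrial tRNAs (0.22, adjusted p = 0.126). In TA these 3 lists had medians of -0.05, 0.02 and 0.03.

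Between tissues, single members passed the test. In vehicle-treated mice 3 of 17 tested members were called, all lower in TA than in heart (14.1% of the 17868 genes tested were called lower, 22.6% higher and 36.7% in either direction). The count was near that share and is not read as a property of the members. They were mt-Co1 and both rRNAs. Since tissue goes with age here, the comparison is of TA at 5 months with heart at 16 months.

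mt-Co1 was 41519, 41913, 40175 and 40696 TPM in vehicle TA and 63627, 57692, 59737 and 62134 in vehicle heart. Every TA library was below every heart. Its log2 difference was -0.56 (SE 0.09, adjusted p = 1.43e-04 by limma). Over 19 alternative settings the adjusted p-value was 1.54e-05 to 0.232, and the call was lost with no filter on low TPM, as it was in D + Q mice (adjusted p = 0.192).

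mt-Rnr1 stood at 6517 to 12072 TPM in vehicle TA and 11232 to 14978 in vehicle heart, a log2 difference of -0.75 (SE 0.17, adjusted p = 0.00184 by limma). mt-Rnr2 stood at 896 to 2715 and 2030 to 2694 TPM, a difference of -0.93 (SE 0.26, adjusted p = 0.00867 by limma). Both overlapped between tissues through vehicle TA replicate 4, and without it the differences were -0.95 and -1.30, with adjusted p-values of 3.78e-06 and 5.67e-07. Over 19 alternative settings the adjusted p-values were 3.78e-06 to 0.0194 for mt-Rnr1 and 5.67e-07 to 0.0329 for mt-Rnr2.

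In D + Q–treated mice 4 members were called, again all lower in TA (15.9% of genes were called lower, 21.4% higher and 37.3% in either direction). mt-Rnr1 differed by -1.18 (SE 0.18), mt-Rnr2 by -1.55 (SE 0.28) and mt-Co1 by -0.67 (SE 0.10), with adjusted p-values by limma of 7.62e-05, 3.51e-04 and 6.28e-05. For these 3 genes every treated TA was below every treated heart. The median of all genes tested was 0.16 in the vehicle comparison and 0.09 in the D + Q comparison, and relative to it mt-Rnr1, mt-Rnr2 and mt-Co1 lay at -0.91, -1.09 and -0.72 in vehicle mice and at -1.27, -1.65 and -0.77 in treated mice.

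mt-Atp6 was the fourth, and its call was lost when it was summed with its copy. It was 4797, 4839, 4860 and 6111 TPM in D + Q TA and 7127, 7398 and 7330 in D + Q heart, without overlap (log2 difference -0.51, SE 0.10, adjusted p = 8.65e-04 by limma). Summed with Atp6-ps it was 46285, 45733, 42541 and 42483 against 48607, 46813 and 50211 TPM, and the difference was -0.13 (adjusted p = 0.313 by limma, where 18 alternative settings ranged from 1.74e-04 to 0.313). In vehicle mice the difference of mt-Atp6 alone was -0.44 (adjusted p = 0.00128 by limma), within the fold threshold, and -0.04 summed. Alone, it was called lower in vehicle TA with median-of-ratios scaling (-0.63, adjusted p = 0.00175 by limma). The same held with 7SL and 7SK RNA left out of the total (-0.58, adjusted p = 1.38e-04 by limma).

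mt-Nd3 moved the other way when summed. Alone it differed by 0.76 (SE 0.51, adjusted p = 0.250 by limma) between D + Q TA and D + Q heart. The sum with Gm28438 was 15723, 15518, 15118 and 15706 TPM in TA and 10743, 10858 and 10814 in heart, and it was called higher in TA at 0.52 (SE 0.14, adjusted p = 0.00633 by limma), where 21.4% of genes were called higher and 37.4% in either direction. Gm28438 by itself was called higher too (0.51, adjusted p = 0.00512 by limma). In vehicle mice the sum was 16184, 14030, 15110 and 9873 TPM in TA and 10639, 10549, 10584 and 12245 in heart, with a difference of 0.30 (adjusted p = 0.0654 by limma). Replicate 4 of vehicle TA sat among the hearts.

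The remaining mRNAs stayed within 0.5 on the log2 scale between tissues, apart from the members already described. mt-Nd2 was 0.27 higher in vehicle TA (adjusted p = 0.0458 by limma, and 0.0735 without vehicle TA replicate 4) and mt-Nd6 differed by -0.36 in D + Q mice (adjusted p = 0.0142 by limma). Across the 13 mRNAs the median was 0.02 in vehicle mice, with 8 above 0, and -0.15 in D + Q mice, with 3 above 0. With median-of-ratios scaling 2 of 13 were above 0 in both, so the direction of the set in vehicle mice depends on the scale.

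Of the 13 mRNAs as listed, mt-Co1 had the most negative value in both tissue comparisons. The ratio of mt-Co1 to mt-Cytb, which cancels any scaling of the library, was 1.97 to 2.44 over the 8 TA libraries and 3.14 to 3.30 over the 7 hearts. mt-Co1 over mt-Nd1 was 1.45 to 2.07 in TA and 2.63 to 2.95 in heart. Neither ratio overlapped between tissues, which shows unequal change and not which gene changed.

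Nuclear partners of complex IV differed in the same direction. Of 14, 6 were lower in TA in vehicle mice (median -0.48, where 14.1% of all genes were called lower) and 12 in D + Q mice (median -0.69, against 15.9%), among them Cox6a2, the muscle form of a regulatory subunit, at -0.73 and -0.97. Those lower in both were Ndufa4, Cox6a2, Cox4i1, Cox8a, Cox6a1 and Cox7a1, and Cox6c, Cox7c, Cox7b, Cox7a2, Cox6b1 and Cox5b were called in D + Q mice. None of the 14 was called in the test of treatment by tissue (smallest adjusted p = 0.677 by limma, for Cox6c). Complex IV members of the mitochondrial genome had values of -0.56 and -0.67 for mt-Co1, and mt-Co2 and mt-Co3 summed with their copies had -0.18 and -0.21 in vehicle mice and -0.29 and -0.21 in treated mice.

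The counts for the other complexes stand against the same 14.1% and 15.9% of all genes called lower, and several are near them. For complex I, 7 of 36 nuclear genes were lower in TA and 1 (Ndufa13) was higher in vehicle mice, and 10 were lower in D + Q mice, with medians of -0.26 and -0.39. Ndufs6 had log2 differences of -0.85 and -1.18, and Ndufa11, Ndufa1, Ndufa5, Ndufv3, Ndufab1 and Ndufa3 were also called in both, with Ndufb4, Ndufb8 and Ndufa10 added in D + Q mice. None of the 7 complex I members of the mitochondrial genome was called as listed, and the summed mt-Nd3 was called in D + Q mice in the opposite direction. Nuclear complex III had 1 and 3 of 9 lower (medians -0.25 and -0.40, Uqcr11 in both and Uqcrc2 and Uqcrh in D + Q mice) beside -0.04 and -0.18 for mt-Cytb. The nuclear ATP synthase genes had 3 and 6 of 17 lower (medians -0.33 and -0.44, Atp5mc1, Atp5mc3 and Atp5pd in both and Atp5f1a, Atp5me and Atp5mk in D + Q mice) beside 0.02 and -0.15 for mt-Atp8. The other mitochondrial subunit of that enzyme, mt-Atp6, lay at -0.44 and -0.51 as listed and at -0.04 and -0.13 summed with its copy. Complex II, which has no mitochondrial-genome subunit, had 0 and 2 of 4 lower (Sdhb -0.59 and Sdhc -0.52 in D + Q mice).

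**Figure D5:**
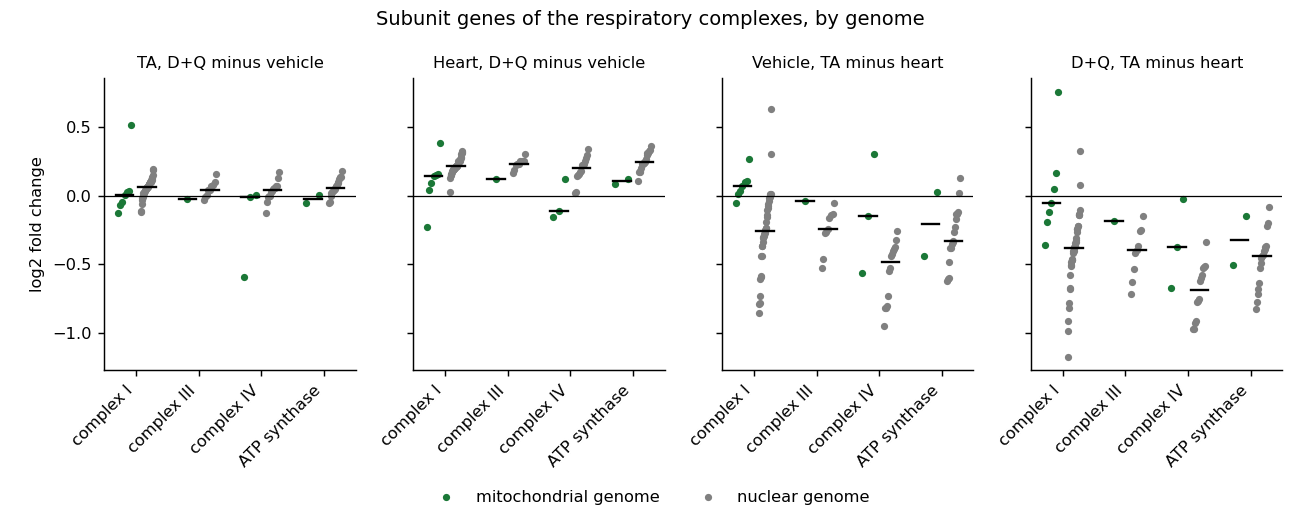
Log2 fold changes of the subunit genes of complexes I, III and IV and the ATP synthase, each point 1 gene as listed, with mitochondrial-genome genes in green and nuclear genes in grey and bars at the medians. In heart every nuclear gene of these 4 complexes lies above 0 under D + Q, and in the tissue comparisons most nuclear genes lie below 0.

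Of the factors that act on mitochondrial DNA and RNA, few were called between tissues. Over all genes tested, 36.7% were called in either direction in vehicle mice and 37.3% in D + Q mice. Hsd17b10 was lower in TA in vehicle and in D + Q mice (log2 differences -1.08 and -1.23, SE 0.08 and 0.09). Top1mt, the mitochondrial topoisomerase, was higher in vehicle TA (0.64). In D + Q mice Elac2, which cuts the 3′ side of tRNAs, was higher in TA (0.54), and Supv3l1, a helicase of the RNA degradosome, was lower (-0.58). None of the 10 transcription factors was called, and Tfam, which packages mitochondrial DNA and starts its transcription, was nearest at 0.36 and 0.45 (adjusted p = 0.0945 and 0.058 by limma).

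Whether the treatment difference itself differed between TA and heart was tested as an interaction. No member was called, against 0.0616% of 17868 genes (0.0448% higher and 0.0168% lower). mt-Nd6 had the smallest p-value, with a TA difference 0.47 lower than the heart difference (log2 estimate -0.47, SE 0.15, unadjusted p = 0.00654, adjusted p = 0.628 by limma). The rRNA estimates were -0.43 (SE 0.25) for mt-Rnr1 and -0.62 (SE 0.38) for mt-Rnr2, and without vehicle TA replicate 4 they were -0.23 and -0.25.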

How the data were processed

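Bulk RNA-seq of 15 libraries, made by the authors with an mRNA preparation kit, was analysed. The authors trimmed reads with Trim Galore 0.6.10, quantified them with Salmon 1.10.3 against GRCm39 and deposited TPM per gene. The annotation release is not given in the sources used here. Depth cannot be recovered from TPM, so its effect on precision is unknown. The table held 0 value columns without a sample.

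Members were found by the mt- prefix, and positions and sequences were taken from the GRCm39 genome with the GENCODE M39 annotation, in which 56236 of 56980 identifiers were found. The members, lists and tests were chosen with earlier results of these data known. Copies were genes aligned to a member with at least 99% identity over at least 200 bases. All genes with 0.5 TPM or more in 3 or more libraries were fitted with limma 3.58.1 (R 4.3.3, variance trend) on log2(TPM + 0.5), a scale that understates changes of low genes. The TA model held 1 surrogate variable (5 rounds), the heart model labelled sex, and the tissue and interaction tests 4 group means over 15 libraries. A call needed a Benjamini-Hochberg adjusted p-value under 0.05 over all genes tested and a log2 fold change beyond 0.5 in size. P-values set a difference against the spread between samples within groups, pooled over the groups of a fit and adjusted by the trend over genes. The code was tested on simulated data.

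The 13 mRNAs and 2 rRNAs were named by rule, tRNAs where they passed 0.5 TPM in 3 libraries of a tissue, and genes of the nuclear lists from those called or, where none was, by the 2 smallest p-values. Alternatives were the pseudocount (0.1 and 1), the low-value filter, scaling, covariates, the variance trend, the replicate number as a block and leaving out each library. Sums with chromosome 1 copies and totals without 7SL and 7SK RNA were added after the data were seen. Same-numbered D + Q and vehicle libraries deviated with correlations of -0.12 in TA and 0.00 in heart, so replicate numbers were not taken as pairs. Libraries of a group correlated at 0.949 to 0.982, with 0 identical pairs.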

Additional observations from a re-analysis of the deposited data

Results flagged for a closer look

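Values far from the other 3 libraries of a group of 4 were looked for in 72 group and measure combinations, and 10 were found. The rule was Dixon's test of the gap to the nearest library over the group's range. About 5% of independent combinations are flagged by chance. These combinations share libraries and genes, so the count cannot be compared with that percentage. The same library accounts for 6 of the 10. Vehicle TA replicate 4 was highest for mt-Rnr1 (12072 TPM), mt-Rnr2 (2715 TPM), mt-Atp8 (113886 TPM), mt-Nd4 (25864 TPM), mt-Co2 summed with its chromosome 1 copy (43370 TPM) and the share of both rRNAs (1.48% of TPM).

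The other 4 fell on different libraries. mt-Atp6 was highest in D + Q TA replicate 4 (6111 TPM) and in vehicle heart replicate 1 (7648 TPM), mt-Nd4l in vehicle TA replicate 3 (8080 TPM), and mt-Nd3 summed with its copy in vehicle heart replicate 4 (12245 TPM). The groups of 3 were not examined in this way, and the part of any library feature in these values was not tested.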

How the results depend on the processing

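The count of members called kept within 1.5 times of its value under each setting run, covering the pseudocount, low-value filter, scaling, variance trend, covariates, sums with chromosome 1 copies and each mouse left out in turn. It was 0 throughout for treatment in TA, in heart and for the interaction, 2 to 4 in vehicle mice and 3 to 4 in D + Q mice between tissues, where leaving out a mouse gave 3 in vehicle and 3 to 4 in D + Q mice. With the replicate number as a block, the 5 counts were 0, 0, 3, 4 and 0, and the block is no pairing of animals. No filter on low TPM left mt-Co1 uncalled between tissues (adjusted p = 0.232 in vehicle and 0.192 in D + Q mice, by limma). mt-Atp6 in D + Q mice lost its call, by the fold threshold, without D + Q TA replicate 1, 2 or 3 or D + Q heart replicate 2 (log2 difference -0.50 to -0.48), and when summed with its copy.

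The heart share difference of 2.07 points moved to 0.443 with 12 abundant nuclear genes, 6 of them chromosome 1 copies, left out of the total and to 0.477 without 7SL and 7SK RNA, and the vehicle TA minus heart difference of -2.10 points moved to -6.83 and -5.23. Leaving out a mouse gave 1.64 to 2.64 points in heart, -3.45 to -1.35 between vehicle tissues and -1.56 to 0.552 in TA, where vehicle TA replicate 4 set the sign.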
